A study of Mus musculus with 4 samples.

Results

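Interferon-stimulated genes were followed across 4 populations of mouse CD4 T lineage cells, each measured on 1 Affymetrix array. The set was a list of 41 named genes, and a gene counted as measured when a probe set carried its symbol and no other. That held for 38 of the 41, out of 22180 genes measured in this way. Of the rest, Dtx3l was read only by a probe set shared with Parp9 and Gbp2 only by one shared with Gbp2b, and Ifi44 was not analysed here. The list was drawn up with earlier results of these arrays in view.

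All mice were on the C57BL/6 background and 8 weeks old. Natural Th1 cells (nTh1) were thymocytes of CIITAtg mice sorted as positive for CD4, CD62L and the chemokine receptor CXCR3. Classical Th1 cells (cTh1) were made from CD4+CD62Lhi splenocytes of wild-type mice by 5 days of culture with beads that engage CD3 and CD28, 2 ng/ml of IL-12, 50 U/ml of IL-2 and an antibody that blocks IL-4. TT naive cells were CIITAtg thymocytes sorted as CD4+CD62L+ but without CXCR3, and naive cells were CD4+CD62Lhi cells of wild-type spleen, taken without culture. The name CIITAtg stands for a transgene of CIITA, the regulator of MHC class II genes. The sources used here do not say which promoter drives the transgene or how many animals lie behind an array. Tissue, genotype and culture differ together between cTh1 and either thymic population and cannot be told apart. Between cTh1 and TT naive cells the mix of sexes differs as well, as Y-linked transcripts show below. The cTh1 and naive populations share tissue and genotype by their labels, but differ in culture and also in the mix of sexes. With 1 array per population there is no replicate check, and no test was made.

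Interferons are secreted proteins that make cells resistant to viruses. Type I interferons act through the receptor chains Ifnar1 and Ifnar2 and the kinases Jak1 and Tyk2, and the factor complex of Stat2 and Irf9 then binds the interferon-stimulated response element in front of antiviral genes. Interferon-gamma, the signature cytokine of Th1 cells, acts through Ifngr1 and Ifngr2 and favours another set of genes that includes Irf1, Irf8 and the guanylate-binding and immunity-related GTPases. Many genes answer to both kinds of interferon, and some also answer to cytokines or to the activation of a T cell.

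Markers went against the label on the array labelled naive, and in part on the cTh1 array. The array labelled naive had Cxcr3 at 9.80, against 7.76 in the TT naive cells sorted to lack it, 9.91 in nTh1 and 10.53 in cTh1. It had Tbx21 (T-bet) at 9.81 and Zbtb16 (PLZF, a factor of innate-like T cells) at 12.23. Tbx21 was at 7.92 in nTh1, 11.25 in cTh1 and 7.11 in TT naive cells, so nTh1 lay below the array labelled naive. Zbtb16 was at 9.88 in nTh1, 7.31 in cTh1 and 9.36 in TT naive cells. All of these are log2 values. The sources used here do not say whether the probes for mouse Ciita read the transgene, and the values of both genotypes overlapped. Ciita gave 7.72 (nTh1) and 7.28 (TT naive) for the CIITAtg mice, and 8.00 (cTh1) and 7.59 on the array labelled naive. Eomes, which the title gives as the mark of nTh1 cells, was at 10.68 in nTh1, 7.94 in cTh1, 8.84 in TT naive and 10.03 on the array labelled naive. The Y-linked transcript Eif2s3y lay between 4.97 and 5.16 in nTh1 and cTh1, and between 8.55 and 8.61 in TT naive and on the array labelled naive. Xist, a transcript of female cells, was between 12.56 and 13.25 on all 4 arrays. TT naive cells and the array labelled naive thus held transcripts of both sexes, and the mix of sexes differed between arrays. Cd4 was between 12.33 and 12.72 on all 4 arrays, and the 8 CD4 T cell markers measured, out of 10 listed, averaged between 11.93 and 12.10 on each array. Whether the nTh1 and naive labels were exchanged was not tested. Values are therefore given for all 4 arrays. The comparison of cTh1 with TT naive cells rests on neither of these labels, but its arrays differ in the mix of sexes. The cTh1 array, labelled as made from CD4+ cells, also had Cd8a at 10.31 and the B cell gene Cd79a at 10.29. In TT naive cells these were at 6.22 and 6.50. Other markers are given below.

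The main pattern was a split of the interferon-stimulated genes on the cTh1 array. Many genes of the antiviral programme were low there and near level on the other 3 arrays, while the IFITM genes, Irf8 and the GTPase gene Gbp3 were high there. In such bulk samples fewer cells of a type and less RNA per cell cannot be told apart. A gene was called at a difference of 1 or more on the log2 scale, that is 2-fold, and counted when an array compared reached 6.61, which is the median of the whole table. Of the 37 members above this level on any array, 10 were at least 2-fold lower in cTh1 than on each of the other 3 arrays, namely Oas2, Oas3, Oasl1, Oasl2, Ifit1, Mx2, Rsad2, Ifih1, Irf7 and Rtp4. Over all 13238 genes above it the share was 1.1%. Another 4, Ifitm1, Ifitm3, Irf8 and Gbp3, stood 2-fold or more above each other array in cTh1, where the share over all genes was 3.54%. Ifitm1 passed the level in cTh1 only, so its place in this count is a description of where it was detected above that level. The cTh1 array gave the lowest of the 4 values for 25 of the 37 members, against 29.5% of all genes.

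**Figure D1:**
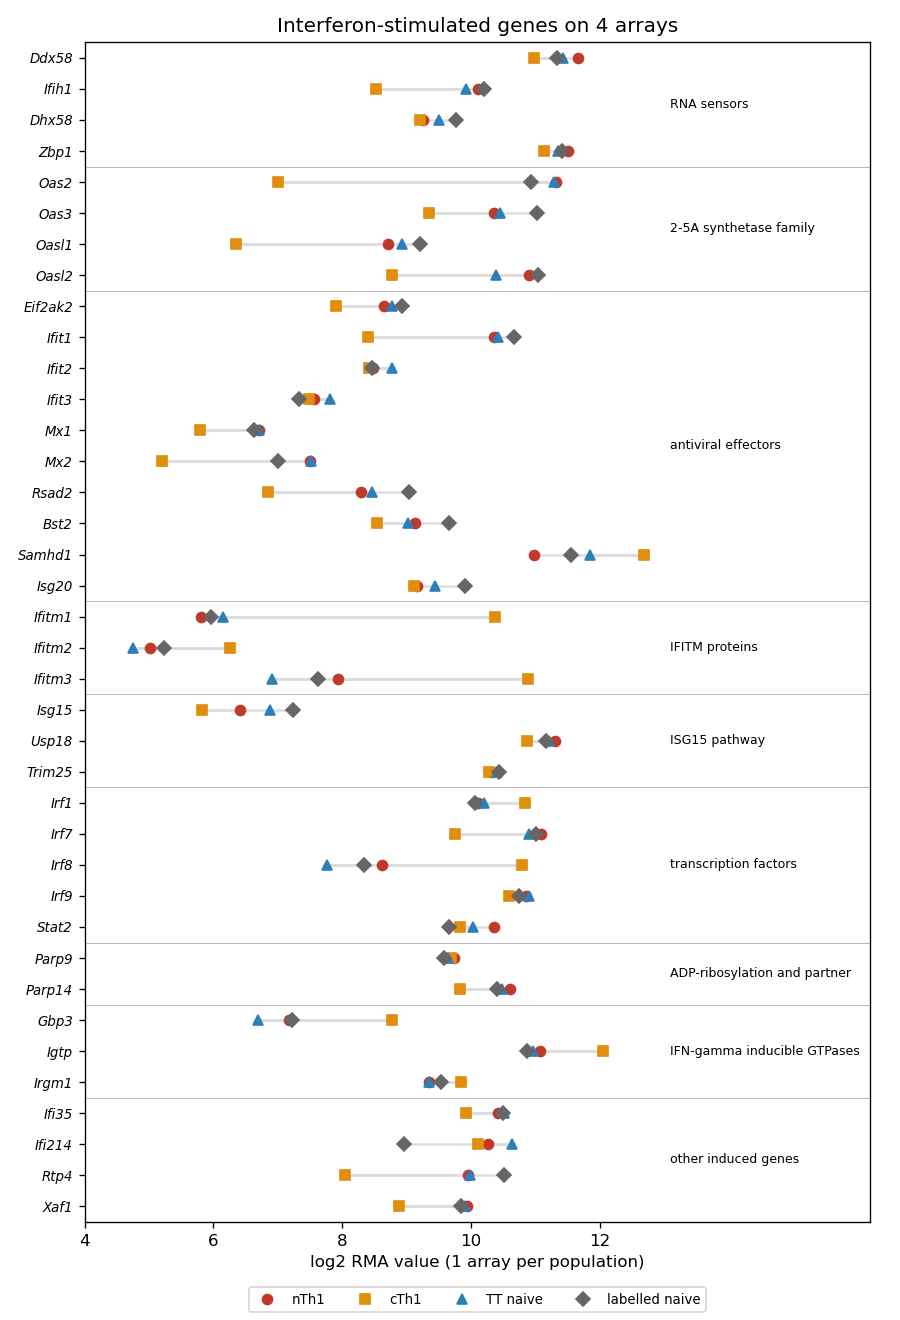
Log2 values of the 38 measured interferon-stimulated genes on the 4 arrays, ordered by role, with 1 symbol per array and a line over the range. The cTh1 squares lie left of the other 3 symbols for Oas2, Oas3, Oasl1 and Oasl2 and right of them for the IFITM genes.

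Without cTh1 the members spread about as all genes did. The range over nTh1, TT naive and the array labelled naive had a median of 0.37 over the 38 members, and 0.35 over all genes above the level. It reached 2-fold for 2 members, Ifitm3 and Ifi214, and for 7.87% of all genes. With cTh1 included the median range was 1.15 for members and 0.51 for all genes.

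The comparison of nTh1 with cTh1 cells is the one that the title of the series draws. Of 36 members above the level in nTh1 or cTh1, 11 stood 2-fold or more above cTh1 in nTh1 and 5 stood below it, beside 3.46% and 8.3% of all genes. The median of the members was 0.48, and that of all genes -0.08. More members were higher than lower in nTh1, while among all genes more were lower. With the arrays centred on their medians the counts were 9 higher and 6 lower members. In the comparison of cTh1 with the array labelled naive, 7 of 37 members passed 2-fold upward in cTh1 and 13 downward, beside 5.13% and 3.35% of all genes, and the medians were -0.56 for members and -0.02 for all genes. Against TT naive cells, 5 of 37 members were higher in cTh1 and 12 lower, beside 7.24% and 3.02%, and the medians were -0.44 and 0.03. These 3 comparisons share the cTh1 array, so their counts are not independent.

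**Figure D2:**
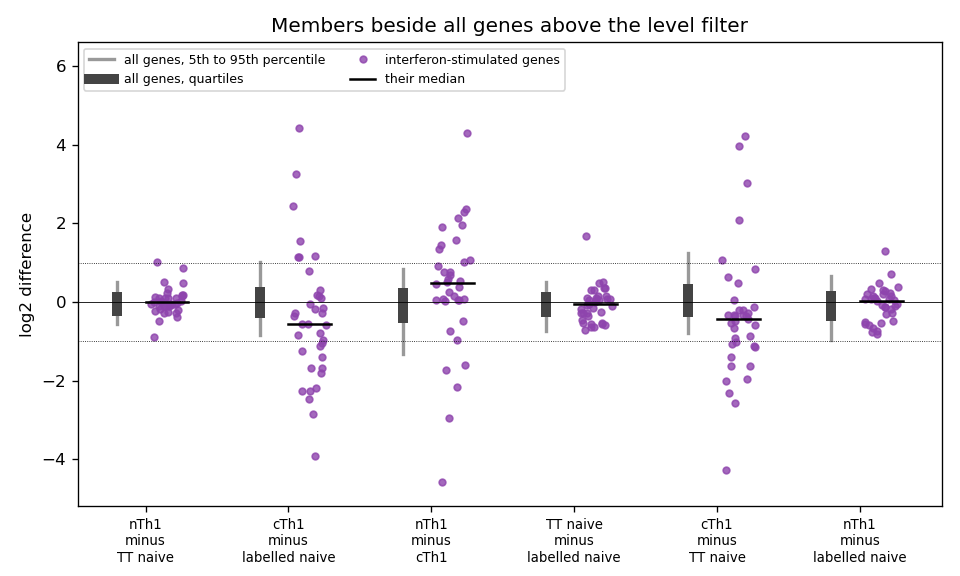
Log2 differences in 6 comparisons, with the first-named array minus the second. Grey bars give the 5th to 95th percentile and the quartiles of all genes above the level, dots are interferon-stimulated genes and short lines their medians, and dotted lines mark 2-fold. The dots reach about 4 in both directions in the comparisons that involve cTh1 and stay mostly within 2-fold in the others.

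The oligoadenylate synthetases make the short nucleic acid that switches on RNase L, and the 4 members of this family, Oas2, Oas3, Oasl1 and Oasl2, were at least 2-fold lower in cTh1 than on each other array. The family's genes outside the 41, named here after their values were seen, did not share this. Oas1b was at 9.84 (nTh1), 9.49 (cTh1), 10.22 (TT naive) and 9.72 (labelled naive), and Oas1c at 7.79 (nTh1), 7.96 (cTh1), 8.23 (TT naive) and 8.00 (labelled naive). Oas1g lay between 3.42 and 4.54, under the level on all 4 arrays. The Oas1 genes are close copies, and their probe sets are uncertain. Oas2 was at 11.32 in nTh1, 7.01 in cTh1, 11.29 in TT naive cells and 10.94 for the array labelled naive. The 3 other arrays thus lay within 0.38 of each other, and TT naive cells were 19.4-fold above cTh1. Oasl1, a family member without synthetase activity that restrains Irf7 in mice, was at 8.71 in nTh1, 6.35 in cTh1, 8.93 in TT naive and 9.20 on the array labelled naive. Oasl2 was at 10.90 (nTh1), 8.78 (cTh1), 10.39 (TT naive) and 11.04 (labelled naive) and Oas3 at 10.36 (nTh1), 9.34 (cTh1), 10.45 (TT naive) and 11.02 (labelled naive). In each of the 4 genes cTh1 was the lowest array. The differences of nTh1 minus cTh1 ranged from 1.02 for Oas3 to 4.31 for Oas2, and Oas3 was under 2-fold in that comparison when arrays were centred on their medians. Oas2 and Oas3 are neighbours on chromosome 5, as are Oasl1 and Oasl2, with 0 protein-coding genes between them in RefSeq's order.

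The antiviral effectors were uneven. Ifit1, which binds viral RNA caps, was at 10.36 in nTh1, 8.40 in cTh1, 10.42 in TT naive and 10.66 on the array labelled naive. Ifit2 and Ifit3 of the same family lie near it on chromosome 19, with 3 protein-coding genes between Ifit3 and Ifit1, and were near level. Ifit2 was at 8.49 (nTh1), 8.41 (cTh1), 8.77 (TT naive) and 8.47 (labelled naive) and Ifit3 at 7.56 (nTh1), 7.49 (cTh1), 7.81 (TT naive) and 7.33 (labelled naive). The 4 arrays lay within 0.48 of each other for both, and no pair of arrays reached 2-fold. Rsad2, the antiviral enzyme viperin, was at 8.30 in nTh1, 6.85 in cTh1, 8.47 in TT naive and 9.04 on the array labelled naive. Mx2, a dynamin-like GTPase, was at 7.49 (nTh1), 5.21 (cTh1), 7.51 (TT naive) and 7.01 (labelled naive), so that cTh1 lay well under the level of 6.61 and the other arrays above it. Mx1 was at 6.71 (nTh1), 5.79 (cTh1), 6.70 (TT naive) and 6.63 (labelled naive), close to that level on 3 arrays, and cTh1 was lower than each of them by less than 2-fold. Both Mx genes are defective in most laboratory mouse strains, C57BL/6 among them.

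Among the other effectors, Eif2ak2, the RNA-activated kinase PKR that stops translation, was at 8.66 in nTh1, 7.90 in cTh1, 8.77 in TT naive and 8.93 on the array labelled naive. Bst2, the tetherin that holds budding virus at the cell surface, was at 9.13 (nTh1), 8.54 (cTh1), 9.03 (TT naive) and 9.66 (labelled naive), and the RNA exonuclease gene Isg20 at 9.16 (nTh1), 9.12 (cTh1), 9.44 (TT naive) and 9.91 (labelled naive). The cTh1 value was the lowest in all 3 genes, and it reached 2-fold for Eif2ak2 and Bst2 against the array labelled naive only, a call that Eif2ak2 lost after centring (-0.98 for cTh1 minus that array). Samhd1, which degrades the nucleotides needed for reverse transcription, went the other way, with 10.97 in nTh1, 12.69 in cTh1, 11.86 in TT naive and 11.55 on the array labelled naive. It was the only one of the 10 effectors with its highest value in cTh1.

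RNA sensors start the interferon response in an infected cell. Of the 4, Ifih1 (MDA5) was lower in cTh1 by at least 2-fold against each other array, with 10.11 in nTh1, 8.52 in cTh1, 9.93 in TT naive and 10.21 on the array labelled naive. Ddx58 (RIG-I) was at 11.66 (nTh1), 10.98 (cTh1), 11.43 (TT naive) and 11.34 (labelled naive). Dhx58 (LGP2), a regulator of both, was at 9.26 (nTh1), 9.21 (cTh1), 9.50 (TT naive) and 9.77 (labelled naive), and Zbp1, a sensor of left-handed nucleic acids, at 11.51 (nTh1), 11.14 (cTh1), 11.35 (TT naive) and 11.42 (labelled naive). cTh1 was the lowest array for all 4 sensors, but for the last 3 no pair of arrays differed by 2-fold.

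**Figure D3:**
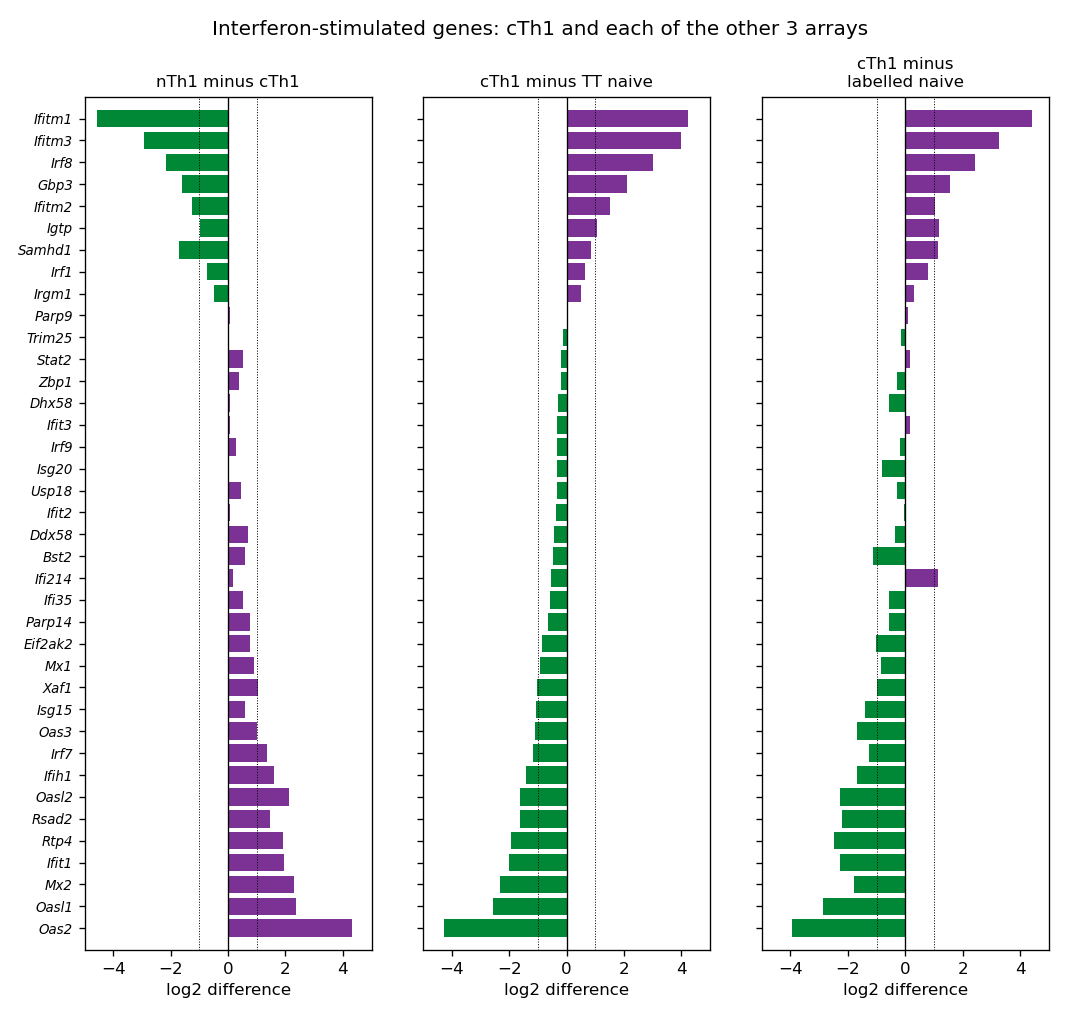
Log2 differences between cTh1 and each of the other 3 arrays for the 38 measured members, 1 bar a gene, in the order of the difference of cTh1 minus TT naive. Dotted lines mark 2-fold. The left panel mirrors the other panels because cTh1 is subtracted there. Oas2 (4.31, -4.28 and -3.93) and Ifitm1 (-4.57, 4.22 and 4.42) are at the ends.

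Sequences in front of the start sites are shown for members that were low, level and high in cTh1, since many such genes carry a response element there. RefSeq windows of GRCm38.p6 were matched for 32 of the 41 members, and the 250 bases before each start were searched on both strands for the core of the interferon-stimulated response element, written as GAAA, any 2 bases and GAAA, which reads TTTC, any 2 bases and TTTC on the other strand. It was found for 13 of the 32 members (40.6%), against 3.46% of all 27025 genes with such a window. In the lines below, which run 5′ to 3′ in the direction of the gene, capitals mark the core. For 3 members that were lowest in cTh1 the stretch around it was as follows.
Ifit1 (chr19:34640773-34640825, plus strand): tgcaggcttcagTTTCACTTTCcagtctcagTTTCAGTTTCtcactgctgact
Rsad2 (chr12:26456551-26456584, minus strand): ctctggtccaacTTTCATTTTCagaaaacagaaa
Oas3 (chr5:120777713-120777746, minus strand): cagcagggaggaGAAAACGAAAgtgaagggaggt
For 2 members that differed from this group, Ifit3 by staying level and Isg15 by its graded values, it was as follows.
Ifit3 (chr19:34583361-34583428, plus strand): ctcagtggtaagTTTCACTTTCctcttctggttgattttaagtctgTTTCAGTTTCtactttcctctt
Isg15 (chr4:156200863-156200908, minus strand): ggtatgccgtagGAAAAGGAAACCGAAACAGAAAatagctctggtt
For 4 members that were highest in cTh1 it was as follows.
Gbp3 (chr3:142559987-142560026, plus strand): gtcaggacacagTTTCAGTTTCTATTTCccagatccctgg
Igtp (chr11:58199510-58199543, plus strand): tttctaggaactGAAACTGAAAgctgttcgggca
Irgm1 (chr11:48871423-48871462, minus strand): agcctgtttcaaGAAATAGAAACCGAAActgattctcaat
Ifitm2 (chr7:140955986-140956019, minus strand): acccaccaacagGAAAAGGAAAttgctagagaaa
These groups were formed without the level filter. The core was present in 3 of the 7 matched genes that were at least 2-fold lower in cTh1 than on each other array. It was in 2 of the 5 that were higher, and in 7 of the other 17. These shares were 42.9%, 40.0% and 41.2%. The 2 were Gbp3 and Ifitm2, and Ifitm2 lay under the level on all 4 arrays. With Ifitm2 left out, Gbp3 was the only higher gene with the core. The overlapping cores in Gbp3, Irgm1 and Isg15 share a repeat of the 4 letters, so more than 1 match is counted in 1 stretch.

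The palindrome TTCNNNGAA, known as the gamma-activated site, was found in the 250 bases before the start of 8 of the 32 members (25%) and of 8.13% of all genes. With the same groups, it was in 0 of the 7 members low in cTh1 and in 1 of the 5 that were high, Irf8. It was also in 7 of the other 17, among them Irf1, Igtp and Bst2. No match says only that these letters are not in the window.

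The IFITM proteins block the fusion of viruses with cell membranes, and their 3 genes lie side by side on chromosome 7. All 3 were highest in cTh1. Ifitm1 was at 5.81 in nTh1, 10.38 in cTh1, 6.15 in TT naive and 5.96 on the array labelled naive, so the 3 other arrays lay under the level of 6.61 and within 0.35 of each other. Ifitm3 was at 7.94 in nTh1, 10.88 in cTh1, 6.91 in TT naive and 7.63 on the array labelled naive. Ifitm2 was at 5.01 (nTh1), 6.26 (cTh1), 4.75 (TT naive) and 5.23 (labelled naive), with cTh1 again the highest. It lay under the level on all 4 arrays and so was in no count that used the level. Relative to TT naive cells, cTh1 was 15.7-fold higher for Ifitm3, and for Ifitm1 no fold is given because the other arrays lay under the level. The members are similar in sequence, and whether the probes of one also read another was not tested. The 60 bases before the start of Ifitm1 and Ifitm3 hold no core and are shown for comparison with Ifitm2 above.
Ifitm1 (chr7:140968016-140968075, plus strand): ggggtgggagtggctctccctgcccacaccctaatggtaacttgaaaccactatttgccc
Ifitm3 (chr7:141010745-141010804, minus strand): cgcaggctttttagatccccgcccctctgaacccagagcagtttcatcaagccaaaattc

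GTPases of the interferon-gamma response attack the vacuoles of pathogens inside cells. Gbp3, a guanylate-binding protein, was at 7.18 in nTh1, 8.78 in cTh1, 6.70 in TT naive and 7.22 on the array labelled naive. The immunity-related GTPase gene Igtp was at 11.08 (nTh1), 12.04 (cTh1), 10.97 (TT naive) and 10.87 (labelled naive). Irgm1, which controls the other immunity-related GTPases, was at 9.35 (nTh1), 9.84 (cTh1), 9.35 (TT naive) and 9.53 (labelled naive). cTh1 was the highest array for all 3, by at least 2-fold against each other array for Gbp3 and against TT naive and the array labelled naive for Igtp. For Irgm1 it was under 2-fold throughout. Whether other GTPase genes outside the 41 went the same way is given with the wider list.

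Irf7, which amplifies type I interferon production, was at 11.10 in nTh1, 9.75 in cTh1, 10.91 in TT naive and 11.01 on the array labelled naive. Irf8, a factor of myeloid and B cells that interferon-gamma also induces, was at 8.62 (nTh1), 10.79 (cTh1), 7.77 (TT naive) and 8.35 (labelled naive). Its probe set of lower level gave 5.34 (nTh1), 5.92 (cTh1), 5.44 (TT naive) and 5.30 (labelled naive), all under the level, with cTh1 again the highest and no difference of 2-fold. Irf1, an early target of interferon-gamma, was at 10.10 (nTh1), 10.85 (cTh1), 10.21 (TT naive) and 10.06 (labelled naive), higher in cTh1 than on each other array by less than 2-fold. Stat2 was at 10.37 (nTh1), 9.83 (cTh1), 10.03 (TT naive) and 9.66 (labelled naive), and Irf9 at 10.85 (nTh1), 10.59 (cTh1), 10.91 (TT naive) and 10.75 (labelled naive). The partners of the type I complex therefore differed by less than 2-fold between any of the 4 arrays, while Irf7 was lower and Irf8 higher in cTh1.

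Markers of other cell types differed along with these genes. The B cell list (10 of 11 markers measured) averaged 7.09 in nTh1, 8.63 in cTh1, 6.42 in TT naive and 6.47 on the array labelled naive, with Cd79a at 7.64 (nTh1), 10.29 (cTh1), 6.50 (TT naive) and 6.53 (labelled naive). The 9 B cell markers above the level in nTh1 or cTh1 held 6 that were at least 2-fold lower in nTh1 and 0 that were higher. Of all genes, 8.3% were lower and 3.46% higher in that comparison. Cd8a was at 6.42 (nTh1), 10.31 (cTh1), 6.22 (TT naive) and 6.31 (labelled naive), and the 2 CD8 markers averaged 8.09 (nTh1), 10.53 (cTh1), 7.80 (TT naive) and 7.38 (labelled naive). The macrophage, monocyte and granulocyte list of 16 markers was highest in nTh1, with means of 7.91 (nTh1), 6.79 (cTh1), 6.29 (TT naive) and 6.96 (labelled naive). Lyz2 was at 9.44 (nTh1), 7.17 (cTh1), 6.05 (TT naive) and 7.92 (labelled naive). Not every marker of it was highest in nTh1. Fcgr3 was highest in cTh1 (8.52), Fcer1g on the array labelled naive (9.57) and Itgam in TT naive cells (7.99). The 7 plasmacytoid dendritic cell markers measured, a type rich in Irf7 and Bst2, averaged 7.12 (nTh1), 7.17 (cTh1), 6.79 (TT naive) and 7.20 (labelled naive). Bst2 itself was among them, and the defining marker Siglech lay between 6.16 and 6.91 on all arrays. Single markers of this list went both ways in cTh1. Spib was at 6.54 (nTh1), 9.01 (cTh1), 5.38 (TT naive) and 5.78 (labelled naive). Ccr9 was at 7.60 (nTh1), 6.43 (cTh1), 7.39 (TT naive) and 8.84 (labelled naive). The 8 NK cell markers averaged 7.30 (nTh1), 7.26 (cTh1), 6.22 (TT naive) and 7.60 (labelled naive), with Ncr1 between 5.37 and 5.75, under the level on all 4 arrays. Others of that list, which activated T cells also express, varied. Gzma was at 7.58 (nTh1), 10.52 (cTh1), 5.94 (TT naive) and 7.83 (labelled naive), and Klrk1 at 6.24 (nTh1), 8.65 (cTh1), 5.15 (TT naive) and 8.00 (labelled naive), both highest in cTh1. Conventional dendritic cell markers, with 6 of 7 measured, averaged between 7.88 and 8.14, and thymic epithelium markers, with 5 of 6 measured, between 6.68 and 6.87. At or above the level were 6 B cell markers in nTh1, 9 in cTh1, 4 in TT naive and 5 on the array labelled naive, as were 15 of the macrophage, monocyte and granulocyte list in nTh1, 10 in cTh1, 7 in TT naive and 11 on the array labelled naive. The part of these cells in the values of Irf8, the IFITM genes or any other member was not tested.

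**Figure D4:**
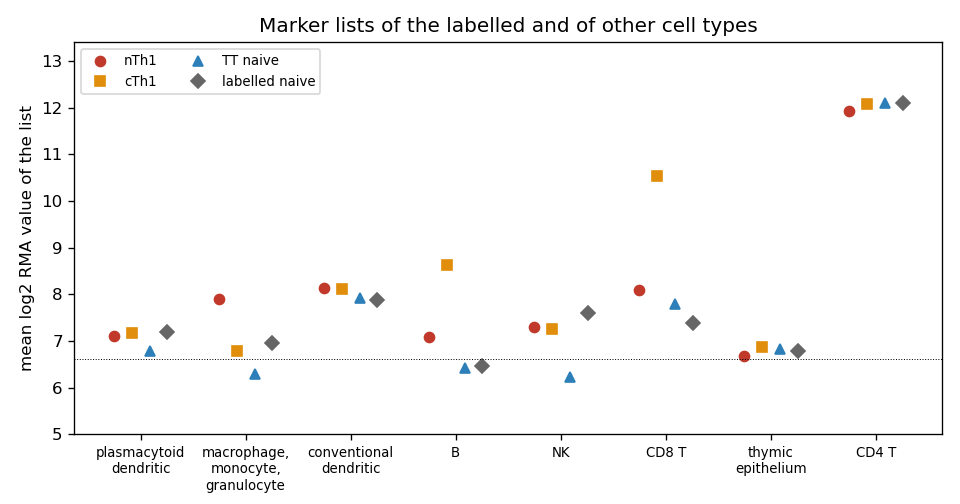
Mean log2 value of each list of cell type markers on the 4 arrays, with 1 symbol per array. The dotted line is the level of 6.61. The B cell and CD8 lists are highest in cTh1 (8.63 and 10.53), and the macrophage, monocyte and granulocyte list is highest in nTh1 (7.91).

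Genes of the ISG15 pathway were graded or level. Isg15, a ubiquitin-like protein, was at 6.41 in nTh1, 5.82 in cTh1, 6.88 in TT naive and 7.23 on the array labelled naive, and it passed the level on the last 2 arrays only. cTh1 was lower by at least 2-fold than those 2 arrays, but not than nTh1, and after centring the difference from TT naive was -0.94. Usp18, the protease that removes Isg15 and dampens the type I receptor, was at 11.31 (nTh1), 10.87 (cTh1), 11.22 (TT naive) and 11.16 (labelled naive), and Trim25, a ubiquitin ligase that acts on Ddx58, at 10.31 (nTh1), 10.28 (cTh1), 10.40 (TT naive) and 10.44 (labelled naive). Neither differed by 2-fold between any of the arrays. The ADP-ribosyl transferase family members Parp9 and Parp14, neighbours of Dtx3l, ranged from 9.59 to 9.74 and from 9.83 to 10.60.

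Of the remaining members, Rtp4, a chaperone of receptors that is strongly induced by interferon, was at 9.95 in nTh1, 8.04 in cTh1, 9.99 in TT naive and 10.52 on the array labelled naive. Xaf1, a partner of the apoptosis inhibitor XIAP, was at 9.94 (nTh1), 8.88 (cTh1), 9.91 (TT naive) and 9.85 (labelled naive), and its 2-fold calls against nTh1 and TT naive were lost after centring (0.88 for nTh1 minus cTh1 and -0.91 for cTh1 minus TT naive). Ifi35 was at 10.43 (nTh1), 9.92 (cTh1), 10.51 (TT naive) and 10.50 (labelled naive), and its other probe set, at 6.74 (nTh1), 6.79 (cTh1), 6.95 (TT naive) and 7.08 (labelled naive), did not repeat that cTh1 was the lowest. Ifi214, a member of the Pyhin gene family of DNA-binding proteins, was at 10.27, 10.11 and 10.65 in nTh1, cTh1 and TT naive cells and at 8.97 on the array labelled naive, which stood apart from the other 3. The family has near relatives, so what its probe set reads is uncertain.

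The nTh1 and TT naive cells share tissue and transgene by their labels and were sorted apart by CXCR3. The arrays differed in the mix of sexes too, with Y-linked Kdm5d giving 4.72 for nTh1 and 8.46 for TT naive cells. CXCR3 and sex cannot be told apart. Of 36 members above the level, 1 passed 2-fold upward in nTh1 and 0 downward, beside 1.41% and 1.09% of all genes, and the median was -0.01, against -0.05 over all genes. That 1 member was Ifitm3, with a difference of 1.03, just inside the threshold, and it was under 2-fold after centring. The differences nearest to it were 0.86 for Irf8 and -0.88 for Samhd1. The macrophage, monocyte and granulocyte list differed in the same comparison, with 10 of 15 markers above the level at least 2-fold higher in nTh1, and its part in the Ifitm3 and Irf8 values was not tested.

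Both remaining comparisons rest on the array labelled naive, whose Cxcr3, Tbx21 and Zbtb16 values went against its label. For TT naive cells 1 of 36 members was at least 2-fold higher than on that array and 0 were lower, beside 0.795% and 2.59% of all genes, and in nTh1 cells 1 of 36 was higher and 0 lower, beside 1.93% and 4.43%. Among all genes 246 were higher and 565 lower in nTh1 than on that array, a split that became 167 and 799 after centring and 319 and 445 after removal of a loess trend. The member was Ifi214 in both, 3.2-fold higher in TT naive and 2.47-fold higher in nTh1 cells. With this gene set aside, the differences of TT naive cells from that array ran from -0.71 for Ifitm3 to 0.51 for Mx2.

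Upstream of these genes, the interferon-gamma gene differed by at least 2-fold between each pair of arrays. Ifng was at 7.34 in nTh1, 11.19 in cTh1, 5.88 in TT naive and 8.80 on the array labelled naive. Of 19 interferon genes listed, 17 were measured and 7 lay above the level in nTh1 or cTh1, and apart from Ifng none of them differed by 2-fold between these arrays. Ifna4 was at 9.35 (nTh1), 8.38 (cTh1), 9.56 (TT naive) and 9.02 (labelled naive). It was at least 2-fold lower in cTh1 than in TT naive cells (-1.18). Ifnb1 lay between 3.95 and 4.38 on all arrays, below the level. Type I interferon genes are alike in sequence, and their probe sets are uncertain for that reason.

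Of the receptor chains, Ifngr1 was at 12.67 in nTh1 and 12.83 in cTh1, against 11.35 in TT naive and 11.69 on the array labelled naive. The arrays labelled nTh1 and cTh1 were thus at least 2-fold above TT naive cells in this chain. Ifngr2, the signalling chain that limits the response of T cells, was at 10.56 (nTh1), 9.67 (cTh1), 10.77 (TT naive) and 10.65 (labelled naive). The cTh1 array was the lowest, by at least 2-fold against TT naive cells only (-1.10). Il10rb, a chain shared with the interferon-lambda and IL-10 receptors, was at 9.69 (nTh1), 10.68 (cTh1), 9.73 (TT naive) and 9.62 (labelled naive). It was highest in cTh1, by at least 2-fold against the array labelled naive only (1.07). Ifnlr1 lay between 6.38 and 6.45, under the level on all arrays. Ifnar1 ranged from 10.88 to 11.31 and Ifnar2 from 10.72 to 11.27, and the kinases Jak1, Jak2 and Tyk2 and the factor Stat3 showed no difference of 2-fold between any arrays.

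Of 7 listed inhibitors, 2 were at least 2-fold higher in cTh1 than on each other array, beside 3.54% of all genes. Socs1, which blocks Jak kinases after interferon signals, was at 9.17 in nTh1, 10.33 in cTh1, 9.14 in TT naive and 8.95 on the array labelled naive. Socs3, which acts mainly on cytokine receptors that share gp130, was at 8.13 (nTh1), 10.01 (cTh1), 8.15 (TT naive) and 7.87 (labelled naive). The other 5 did not reach 2-fold in any of the 6 comparisons.

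**Figure D5:**
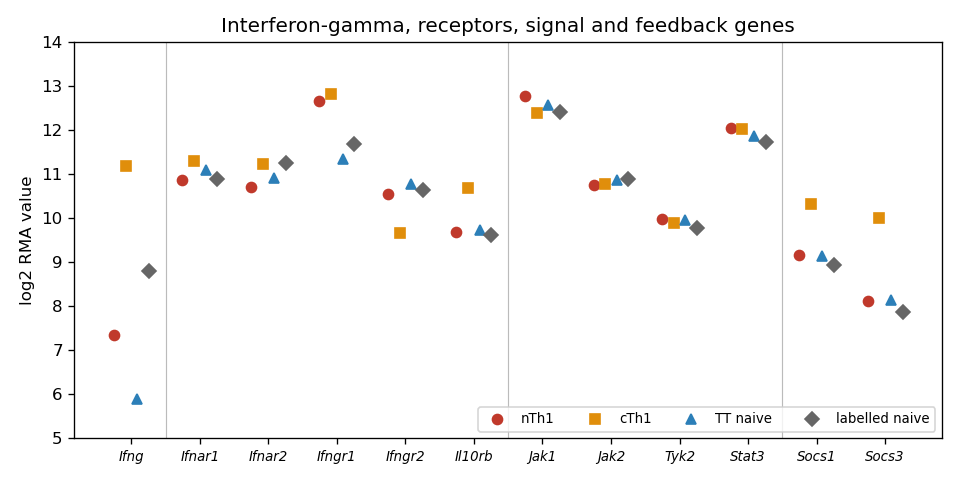
Log2 values of Ifng, the receptor chains (Ifnar1 to Il10rb), the kinases with Stat3 and the inhibitors Socs1 and Socs3 on the 4 arrays. Ifng spans 5.88 to 11.19, Ifngr1 is higher in nTh1 (12.67) and cTh1 (12.83) than on the other arrays, and both Socs genes are highest in cTh1.

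A wider list of 74 interferon-inducible genes outside the 41 was read the same way, and 65 were measured. Above the level, 7 of 56 were at least 2-fold higher in nTh1 than in cTh1 and 7 lower, with a median of 0.12 over all 65. The shares among all genes were 3.46% and 8.3%. Against the array labelled naive, 5 of 57 were higher in cTh1 and 4 lower, beside 5.13% and 3.35% of all genes. Against TT naive cells 7 of 56 were higher in cTh1 and 5 lower, beside 7.24% and 3.02%. The medians over all 65 were 0.02 for cTh1 minus the array labelled naive and -0.06 for cTh1 minus TT naive. Over the 38 measured members these medians were -0.46 and -0.40. The low median of the members in cTh1 was thus not seen in the wider list. Herc6, the ligase that attaches Isg15 in mice, was at 10.80 in nTh1, 9.28 in cTh1, 10.70 in TT naive and 10.66 on the array labelled naive, and Parp12 at 9.77 (nTh1), 8.22 (cTh1), 9.28 (TT naive) and 9.74 (labelled naive). Cmpk2, a nucleotide kinase induced with Rsad2, was at 9.25 (nTh1), 8.20 (cTh1), 9.48 (TT naive) and 10.19 (labelled naive). The GTPase genes of this list, named in full after their values were seen, went both ways. Gbp5 was at 8.04 (nTh1), 9.37 (cTh1), 7.68 (TT naive) and 7.56 (labelled naive), and Irgm2 at 9.72 (nTh1), 11.14 (cTh1), 9.98 (TT naive) and 9.33 (labelled naive), both at least 2-fold higher in cTh1 than on each other array. Gbp7, at 10.41 (nTh1), 11.18 (cTh1), 10.04 (TT naive) and 10.47 (labelled naive), and Iigp1, at 9.07 (nTh1), 9.54 (cTh1), 8.44 (TT naive) and 8.37 (labelled naive), were highest in cTh1 without reaching 2-fold against nTh1. Gbp9 was lowest in cTh1, at 10.96 (nTh1), 9.89 (cTh1), 10.48 (TT naive) and 10.09 (labelled naive), and at least 2-fold higher in nTh1. Gbp4, at 10.80 (nTh1), 10.63 (cTh1), 10.52 (TT naive) and 9.98 (labelled naive), and Gbp8, at 10.58 (nTh1), 10.45 (cTh1), 10.42 (TT naive) and 9.78 (labelled naive), were highest in nTh1 with no difference of 2-fold between any arrays. Gbp6 lay under the level on all 4 arrays. Ifit1bl1, a relative of Ifit1, was at 8.93 (nTh1), 10.96 (cTh1), 9.64 (TT naive) and 9.36 (labelled naive), and its probes may read other genes of that family. Ifi204, of the Pyhin family, was at 5.21 (nTh1), 7.13 (cTh1), 3.65 (TT naive) and 6.15 (labelled naive) and passed the level in cTh1 only. Herc3, of the same family as Herc6, was highest in nTh1, at 11.22 (nTh1), 9.89 (cTh1), 10.09 (TT naive) and 9.85 (labelled naive).

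Of 11 sensors and adaptors of nucleic acid signalling outside the members and above the level, 0 differed by 2-fold between nTh1 and cTh1. Of all genes, 3.46% were higher and 8.3% lower in nTh1 there. Set against the array labelled naive, cTh1 had 1 gene above it and 1 below it by 2-fold, beside 5.13% and 3.35%. In nTh1 1 was above that array and 0 below it, beside 1.93% and 4.43%. Set against TT naive cells, cTh1 had 1 above and 2 below, beside 7.24% and 3.02%. Tlr7, an endosomal sensor of single-stranded RNA, was at 7.96 in nTh1, 7.01 in cTh1, 8.13 in TT naive and 8.16 on the array labelled naive. Nlrc5, an activator of MHC class I genes, was at 11.49 (nTh1), 10.72 (cTh1), 10.72 (TT naive) and 10.21 (labelled naive), with nTh1 the highest. Tlr9, an endosomal sensor of DNA, was at 7.44 (nTh1), 8.29 (cTh1), 7.02 (TT naive) and 6.86 (labelled naive), with cTh1 the highest. Ikbke, a kinase of interferon regulatory factors, was at 11.42 (nTh1), 10.82 (cTh1), 11.93 (TT naive) and 11.11 (labelled naive), and it was the other gene lower in cTh1 than in TT naive cells. Of 5 further genes of the interferon regulatory factors and their partners, 0 differed by 2-fold in any of the 6 comparisons.

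The only spread that the table holds is the one between probe sets of a gene, whose differences had an SD of 0.48 for nTh1 minus cTh1, 0.40 for cTh1 minus the array labelled naive and 0.44 for cTh1 minus TT naive. It covers probes and isoforms, and leaves out animals, sorts and arrays. Centring the arrays on their medians moved the median of all genes by more than 0.1 for nTh1 minus cTh1, to -0.27, and the split of all genes to 278 higher and 1491 lower, against 444 and 1066 without it. The median of all genes became 0.16 for cTh1 minus TT naive, against 0.03, and the member counts there were 5 higher and 9 lower.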

How the data were processed

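RNA of 4 cell populations was measured on 1 Affymetrix array each, from 300 ng of total RNA. The deposited values are on a log2 scale. The submitters' processing notes name RMA and Affymetrix Expression Console 1.3.1, and the sources used here give no genome build. Columns were matched by sample identifier, and precision is limited by having 4 arrays.

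Of 41345 probe sets, 23521 had 1 gene symbol in the platform annotation, 1814 several and 16010 none. A gene with more than 1 probe set was read by the one with the highest mean. Each difference is the log2 value of the first-named array less that of the second. With 1 array per population no p-value was computed. The counting was tested on simulated data. The text may name every member, the measured ligands, receptors and signal genes, per comparison the 4 genes of each other pathway list with the largest difference, any marker and the label checks. The members, lists and rules were chosen with earlier results of these data known. Older symbols were matched through RefSeq gene IDs. Alternatives left out the level filter, set it at the 75th percentile, centred the arrays on their medians, took off a loess trend (span 0.3) or averaged the probe sets of a gene. Promoter sequences are from RefSeq, GRCm38.p6. Python 3.11.15, pandas 2.3.3 and statsmodels 0.14.6 were used.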

Additional observations from a re-analysis of the deposited data

How the results depend on the processing

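The counts and medians of the members in the 6 comparisons, and the counts against all other arrays, stayed within 1.5 times or within the spread between probe sets in 98 of 100 recomputations. The exceptions concern nTh1 over TT naive cells, where the count of 1 higher member became 0 with a filter at the 75th percentile and 0 with arrays centred on their medians. The 10 members lower in cTh1 than on each other array included the 9 found with that filter (without Mx2) and the 9 found after centring (without Oas3). The 4 higher members became 5 without a level filter, with Ifitm2, and 5 after centring, with Igtp. These 2 counts and their alternatives were chosen after seeing the data. Of 273 recomputed single differences 0 reversed, which was nearly fixed in advance. Only differences of 2-fold or more were recomputed, and the level filter cannot change a difference. Averaging probe sets could change Irf8 alone, as Ifi35, the other member with several, was under 2-fold in each comparison. Irf8 alone moved, when its probe sets were averaged. It became 1.53 for cTh1 minus the array labelled naive, 1.75 for cTh1 minus TT naive and -1.37 for nTh1 minus cTh1. Counts of all genes changed by more than 1.5 times with the filter at the 75th percentile for those higher in nTh1 than TT naive (99, against 175), in TT naive than on the array labelled naive (61, against 100, and 217 lower, against 326) and in nTh1 than on that array (142, against 246), and after centring for those higher in nTh1 than cTh1 (278, against 444), where a stricter filter tests fewer genes and centring shifts all differences alike. No paired analysis was possible because each population had 1 array, and no replicate could be left out for the same reason.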
